A study of Mus musculus with 9 samples.

Results

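The genes described here encode core proteins of the spliceosome and the SR splicing factors. They were taken as every row of the expression table whose symbol begins with Snrp, Sf3a, Sf3b, Prpf, Srsf, Sfrs or U2af, which gave 48 of 23235 genes. By symbol they fall into 12 Snrp genes for proteins of the small nuclear ribonucleoproteins (snRNPs), 8 genes of the SF3 complexes, 13 Prpf genes and 3 U2AF genes. The other 12 have Srsf or Sfrs symbols and are called SR genes below. The rule itself reads symbols, not values.

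Mouse oocytes labelled day 21 were separated by micromanipulation into nucleus and cytoplasm, and total RNA from pools of 10 nuclei or 10 cytoplasms was depleted of rRNA and sequenced. The oocytes were wild type (WT) or MTR4-null. MTR4 is the RNA helicase that hands nuclear transcripts to the exosome for degradation, and its gene is listed under the older symbol Skiv2l2. The labels name 3 WT nucleus libraries and 2 libraries for each of the other 3 groups, whereas the table holds 1 column per group. Strain, the way the null allele was made and any Cre driver are not given in the sources used here. The values are FPKM, counts of read fragments divided by transcript length and library size, and no error, SD or p-value can be attached to a group with a single column. Read depth per column is unknown because FPKM does not keep it. In a pool of 10 nuclei or cytoplasms, fewer cells and less RNA per cell cannot be told apart.

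Skiv2l2 checked the genotype labels: nuclei held 16.2 FPKM in WT and 2.91 in MTR4-null oocytes, and cytoplasms 21.6 and 2.51, which left 18.0% and 11.6% of the WT value. All 12 oocyte markers were at 1 FPKM or more in each column, with summed levels of 6312 to 10388 FPKM. Of 12 granulosa cell markers 6 to 9 reached 1 FPKM, with summed levels of 42.9 to 71.9 FPKM, and none of 3 blood markers did. The part of granulosa cell RNA in the results was not tested. Small RNA genes took 57.7% and 53.5% of all FPKM in the WT and MTR4-null nucleus, but 4.1% and 39.0% in the WT and MTR4-null cytoplasm. FPKM is scaled to the mapped fragments of a library, small RNA genes included, so differences are given as deposited and also after centring, which subtracts the median difference of all genes.

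The spliceosome removes introns from pre-mRNA. Its U1, U2, U4 and U5 snRNPs each carry a ring of Sm proteins, the SF3 complexes seat the U2 snRNP on the branch point, U2AF reads the 3' splice site, and the PRPF proteins build the tri-snRNP and drive its rearrangements. SR proteins bind exons through RNA recognition motifs and recruit these machines through arginine-serine repeats. Many SR genes also produce transcripts with a premature stop codon from conserved alternative exons, which lower their own protein level through nonsense-mediated decay. A growing oocyte stores mRNA in its cytoplasm for use after transcription stops.

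Nearly all of the 48 genes were expressed in oocytes. In what follows, a pair of values gives WT first and MTR4-null second unless the sentence says otherwise. Of the 48, 47 reached 1 FPKM in at least 1 column, the minimum used for all differences, and the exception was Srsf12, listed at 0 in both WT columns and at 0.0792 and 0.0279 FPKM in the MTR4-null nucleus and cytoplasm. Median levels over all 48 were 33.7 and 34.3 FPKM in WT and MTR4-null nuclei, and 34.3 and 23.7 FPKM in the cytoplasms. Together the genes held 0.225% and 0.259% of all FPKM in the WT and MTR4-null nucleus and 0.486% and 0.354% in the WT and MTR4-null cytoplasm. When small RNA genes were left out of the totals, those shares became 0.532%, 0.555%, 0.507% and 0.581%. The machinery as a whole thus held a like share of the longer transcripts in all 4 columns, and the differences below lie between its genes.

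**Figure D1:**
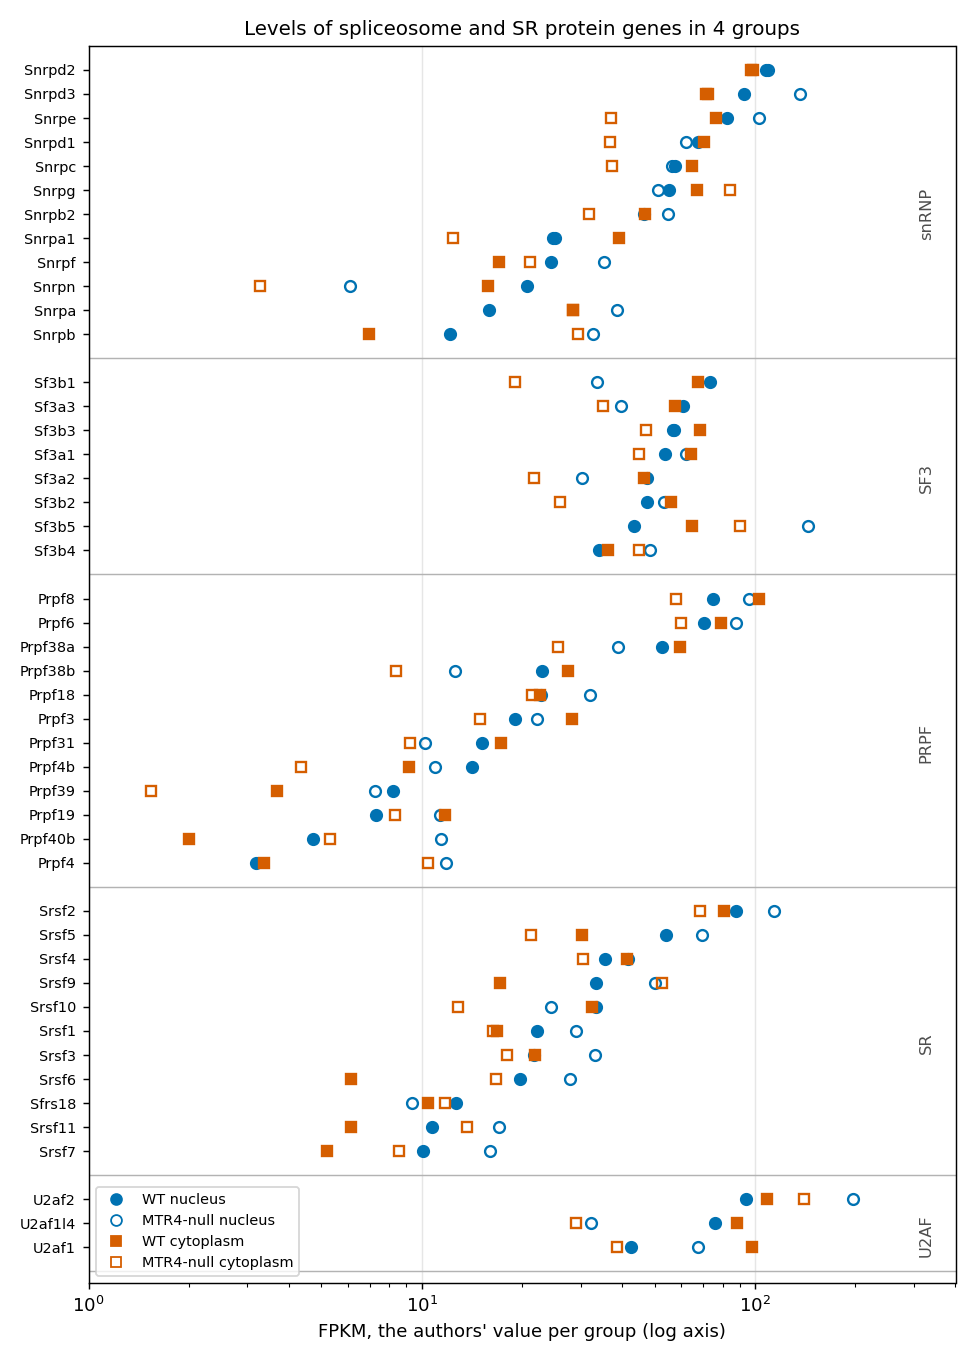
FPKM (logarithmic axis) of 46 of the 47 members with at least 1 FPKM in some column, by gene group, with 1 point per column of the table and no replicate error. The groups overlap in level; Prpf4, Prpf39 and Prpf40b lie at the low end and Snrpd2, Snrpd3, Prpf8 and U2af2 near the top.

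Without MTR4, 21 of the 47 genes were at least 2-fold away from WT in the nucleus, the cytoplasm or both (44.7%), against 56.7% of all 14270 genes past the same minimum. In the nucleus, 6 were at least 2-fold higher on the log2(FPKM + 1) scale (Sf3b5, Prpf4, Snrpb, Snrpa, Prpf40b and U2af2) and 3 at least 2-fold lower (Snrpn, U2af1l4 and Sf3b1), with a median difference of 0.23. Of all genes, 23.9% were 2-fold higher and 12.3% lower in nuclei, with a median of 0.21. In the cytoplasm, 6 members were 2-fold higher (Snrpb, Srsf9, Prpf4, Srsf6, Prpf40b and Srsf11) and 12 lower (among them Snrpn, Sf3b1, Prpf38b, Snrpa1, U2af1l4, U2af1, Srsf10, Prpf38a, Sf3b2, Sf3a2 and Snrpe), with a median of -0.50, against 15.0% and 21.4% of all genes and a median of -0.26. The members therefore made up 12.8% higher and 6.4% lower calls in the nucleus, both shares below those of all genes, and 12.8% higher and 25.5% lower calls in the cytoplasm, near those of all genes.

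Genes of like abundance make a closer background. Among the 8745 genes with a mean of 5 FPKM or more over the 4 columns, the nucleus had 22.1% higher and 7.99% lower (median 0.23), and the cytoplasm 12.5% higher and 28.0% lower (median -0.54). After centring, 4 members were 2-fold higher and 4 lower in the nucleus, against 18.9% and 16.4% of all genes: Prpf40b and U2af2 dropped below the limit there and Prpf38b passed it. The centred cytoplasm had the same 6 members higher and 8 lower, against 19.6% and 13.0%, and Prpf38a, Sf3b2, Sf3a2 and Snrpe were the 4 that dropped out. Centred instead on the genes present in every column, the cytoplasm had 8 members higher and 5 lower, against 25.8% and 6.18% of all genes. The lower cytoplasmic median of the members is thus close to that of other well-expressed genes, and it became 0.08 when the columns were rescaled without small RNA genes.

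Differences in the nucleus and in the cytoplasm, which share no column, ran together over the 47 genes, with Pearson's r of 0.76 and Spearman's rho of 0.77; over all 14270 genes r was 0.50 and rho 0.55. Genes are not independent replicates, and these values describe the table only. They were not computed among the abundant genes, the closer background. As deposited, 12 members were above WT in both compartments, 14 below in both, 19 above in the nucleus only, with the cytoplasm below, and 2 the reverse. After centring these counts were 16, 18, 10 and 3. The same joint counts were not made over all genes, so they cannot be read as particular to the members. Of all 14270 genes, 8297 were above WT in the nucleus and 8544 below WT in the cytoplasm as deposited. Snrpb, Prpf4 and Prpf40b were 2-fold higher in both compartments, and Snrpn, Sf3b1 and U2af1l4 were 2-fold lower in both, against 9.59% and 5.07% of all genes. At the other end, 16 members (34.0%) lay within 1.5-fold of WT in both as deposited, against 15.9% of all genes. Among the 16 were Snrpd2, Snrpd3, Snrpf, Snrpg, Sf3b3, Sf3b4, Srsf1, Srsf2 and Srsf4. This share was not counted among genes of like abundance or after centring, so it does not show a steadiness particular to the members.

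**Figure D2:**
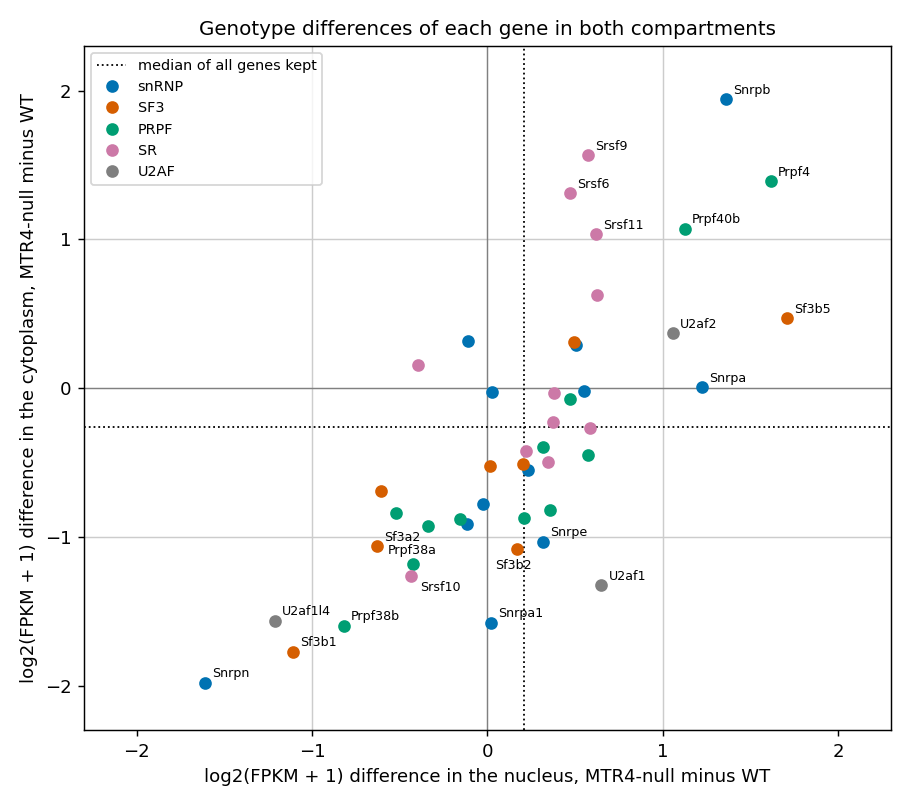
Difference in log2(FPKM + 1), MTR4-null minus WT, in the nucleus (x axis) and in the cytoplasm (y axis) for 46 of the 47 members, coloured by gene group, 1 value per gene. Snrpb, Prpf4 and Prpf40b lie past 1 on both axes and Snrpn, Sf3b1 and U2af1l4 past -1 on both; U2af1 lies at 0.65 in the nucleus and -1.33 in the cytoplasm.

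The Sm proteins form a ring of 7 that encircles the U snRNA, and SmB is made by Snrpb while the closely related SmN is made by the imprinted gene Snrpn. These genes lay on opposite sides of WT. Snrpb stood at 12.1 FPKM in nuclei of WT and 32.8 FPKM in those of MTR4-null oocytes, and at 6.95 and 29.5 FPKM in the cytoplasms; its differences were 1.36 (nucleus) and 1.94 (cytoplasm), and both MTR4-null values lay above both WT values. Snrpn stood at 20.7 FPKM in nuclei of WT and 6.10 FPKM in those of MTR4-null oocytes, and at 15.9 and 3.28 FPKM in the cytoplasms; its differences were -1.61 and -1.98, and both MTR4-null values lay below both WT values. Summed, the pair was at 32.9 and 38.9 FPKM in the WT and MTR4-null nucleus, and at 22.8 and 32.8 FPKM in the cytoplasms. Snrpb made up 37.0% of that sum in WT nuclei and 84.3% in MTR4-null nuclei, and 30.5% and 90.02% in the WT and MTR4-null cytoplasm. The more abundant member of the pair was thus Snrpn in WT and Snrpb without MTR4, in both compartments.

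Reads have to be assigned between these related coding sequences, so the first 90 coding bases of each, 5' to 3' from the start codon, are printed with the differing bases in capitals.
Snrpb: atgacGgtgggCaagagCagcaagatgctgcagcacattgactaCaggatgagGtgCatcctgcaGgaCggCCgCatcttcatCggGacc
Snrpn: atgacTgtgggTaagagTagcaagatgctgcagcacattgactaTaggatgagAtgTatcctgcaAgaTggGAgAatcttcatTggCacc
This stretch holds 13 differences. Over the whole alignment, 558 of 696 coding bases were identical (80.2%), and the longest identical run was 32 bases, against a read length of 150 bases. How the submitters' counting treated reads that fit both genes is not given, so the split between such pairs carries that uncertainty. In the GENCODE M21 annotation of GRCm38, a later build than the mm9 build named for the deposited values, Snrpb lies on the minus strand at chr2:130171414-130179403 and Snrpn on the minus strand at chr7:59982495-60140219. On the same strand, Gm38393 shares 589 of the 2159 exonic bases of Snrpn and has no values of its own here. The upstream gene Snurf shares 216 exonic bases with Snrpn on the same strand. Snurf itself was at 5.56 FPKM in nuclei of WT and 3.60 FPKM in those of MTR4-null oocytes, and at 0.533 and 0.641 FPKM in the cytoplasms, so it was lower without MTR4 in the nucleus as Snrpn was, and under 1 FPKM in both cytoplasms.

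**Figure D3:**
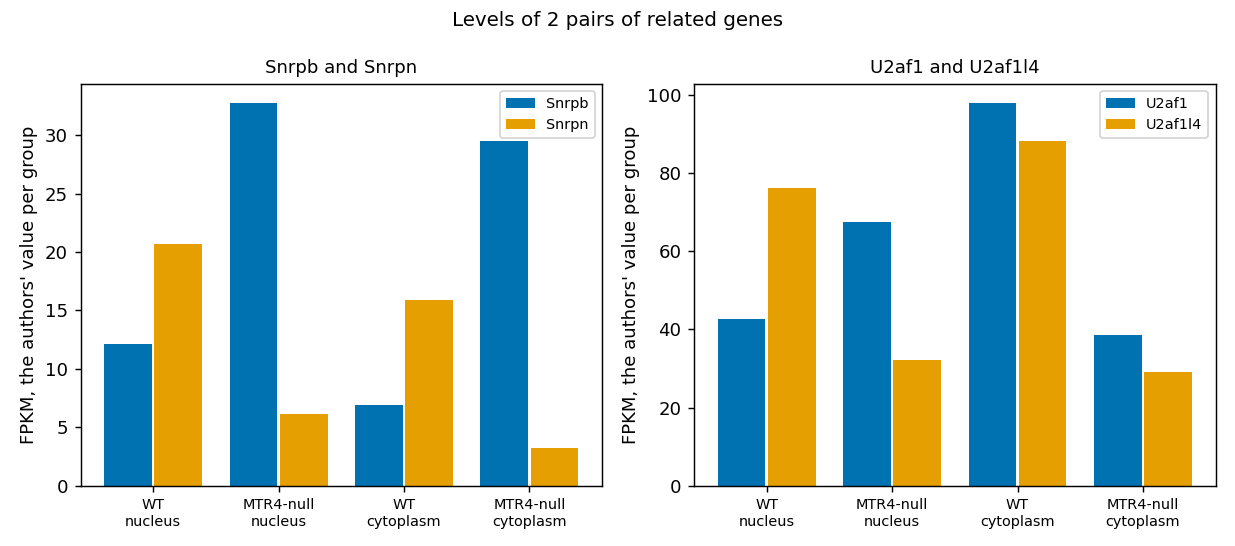
FPKM of Snrpb and Snrpn and of U2af1 and U2af1l4 in the 4 columns of the table, as bars from 0 without replicate error. Snrpn is the larger of its pair in both WT columns and Snrpb in both MTR4-null columns; U2af1l4 is lower in both MTR4-null columns, while U2af1 is higher in the MTR4-null nucleus and lower in the MTR4-null cytoplasm.

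The remaining Sm genes stayed closer to WT in the nucleus. Snrpd2, a subunit that pairs with SmD1 in the ring, was the most abundant of the 48 genes in the WT nucleus and stood at 108 and 109.7 FPKM in the WT and MTR4-null nucleus and 98.9 and 97.2 in the cytoplasms, nearly level throughout. Snrpd3, which pairs with SmB, stood at 92.9 and 136 in the nuclei and 72.2 and 71.3 in the cytoplasms. Snrpd1 was at 67.4 and 62.0 in nuclei and 70.3 and 36.8 in cytoplasms, and Snrpf at 24.5 and 35.1 in nuclei and 17.1 and 21.1 in cytoplasms. Snrpe was at 82.5 and 103 FPKM in the nuclei but 76.6 and 36.9 in the cytoplasms, differences of 0.32 and -1.03. Snrpg was the other way round, at 55.1 and 51.0 in the nuclei and 67.1 and 84.0 in the cytoplasms, and was 1 of the 2 members below WT in the nucleus and above it in the cytoplasm. Although the ring takes 1 copy of each subunit, the 7 mRNAs were unequal: the highest, Snrpd2, exceeded the lowest, Snrpb, 8.87-fold in the WT nucleus and 14.2-fold in the WT cytoplasm. Those ratios were 4.16 and 4.61 in the MTR4-null nucleus and cytoplasm, where the highest genes were Snrpd3 and Snrpd2 and the lowest Snrpb and Snrpf. All these ratios leave out Snrpn, which makes the related SmN. Summed with Snrpn, Snrpb was at 32.9 and 38.9 FPKM in the nuclei and 22.8 and 32.8 in the cytoplasms. Snrpf was then the lowest in each column, and the WT ratios would be smaller, so the wider WT spread rests largely on leaving Snrpn out.

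Among the proteins specific to single snRNPs, Snrpa, the A protein of U1, which binds a stem-loop of its snRNA, stood at 15.9 FPKM in nuclei of WT and 38.5 FPKM in those of MTR4-null oocytes, and at 28.4 and 28.5 FPKM in the cytoplasms. The nuclei differed by 1.22 and the cytoplasms by 0.01. Snrpc, the C protein of U1 that helps U1 bind the 5' splice site, was at 57.4 and 56.3 FPKM in the nuclei and 64.7 and 37.3 in the cytoplasms. The U2-specific pair diverged. Snrpa1, the A' protein of U2, was at 24.7 and 25.1 in the nuclei and 39.0 and 12.4 in the cytoplasms, a cytoplasmic difference of -1.58, whereas its partner Snrpb2, the B'' protein of U2, was at 46.4 and 54.7 in nuclei and 46.9 and 31.7 in cytoplasms, a difference of -0.55.

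Within SF3, which holds the branch point of the intron, Sf3b1 and Sf3b5 lay at opposite ends. Sf3b1, the scaffold subunit that clamps the branch helix, stood at 73.6 FPKM in nuclei of WT and 33.5 FPKM in those of MTR4-null oocytes, and at 67.6 and 19.1 FPKM in the cytoplasms. The MTR4-null values were 45.6% and 28.2% of WT, differences of -1.11 and -1.77, and both lay below both WT values. Sf3b5, the smallest SF3b subunit and the single member annotated with 1 exon, stood at 43.3 FPKM in nuclei of WT and 144 FPKM in those of MTR4-null oocytes, and at 64.9 and 90.2 FPKM in the cytoplasms. Its differences were 1.71 in the nucleus, the largest positive one among the 47, and 0.47 in the cytoplasm.

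The other 6 SF3 genes stayed within 2-fold of WT in the nucleus. Sf3a1, which contacts the U2 snRNA, was at 53.7 and 62.1 FPKM in the nuclei and 64.4 and 45.0 in the cytoplasms. The large scaffold subunit Sf3b3 was at 56.6 and 57.1 in the nuclei and 68.2 and 47.2 in the cytoplasms. Sf3b4, which contacts RNA upstream of the branch point, was at 34.0 and 48.3 in the nuclei and 36.2 and 45.0 in the cytoplasms. Both remaining SF3a subunits were below WT in each compartment: Sf3a2 at 47.5 and 30.3 in the nuclei and 46.6 and 21.7 in the cytoplasms, and Sf3a3 at 60.7 and 39.6 in nuclei and 57.4 and 35.1 in cytoplasms. Sf3b2 was at 47.5 and 53.5 in nuclei and 56.1 and 25.9 in cytoplasms, differences of 0.17 and -1.08. The proteins of SF3 act as fixed complexes, but their mRNAs were spread over 2.16-fold in the WT nucleus and 4.75-fold in the MTR4-null nucleus.

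Of the Prpf genes, Prpf4 and Prpf40b stood out by higher values. Prpf4 encodes a WD-repeat protein of the U4/U6 snRNP and was at 3.19 FPKM in nuclei of WT and 11.8 FPKM in those of MTR4-null oocytes, and at 3.36 and 10.4 FPKM in the cytoplasms, the lowest member past the minimum in the WT nucleus; its differences were 1.62 and 1.39. Prpf3, its direct partner in the U4/U6 snRNP, was at 19.0 and 22.1 in the nuclei and 28.3 and 15.0 in the cytoplasms, so the partners differed from WT by unlike amounts. Prpf40b, a relative of the yeast U1 factor Prp40, was at 4.70 FPKM in nuclei of WT and 11.4 FPKM in those of MTR4-null oocytes, and at 1.997 and 5.30 FPKM in the cytoplasms, with differences of 1.13 and 1.07. All 4 columns put it among the lower levels of the group, and both MTR4-null values lay above both WT values.

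The tri-snRNP genes Prpf8 and Prpf6 were the most abundant of the group in WT. Prpf8, the scaffold of the catalytic centre in the U5 snRNP, was at 74.9 and 96.1 FPKM in the nuclei and 103 and 57.8 in the cytoplasms, and lay above WT in the nucleus by 0.36 and below it in the cytoplasm by a difference of -0.82. Prpf6, which bridges U5 and U4/U6, was at 70.2 and 87.8 in nuclei and 79.4 and 60.1 in cytoplasms. Prpf31, another U4/U6 protein, was at 15.1 and 10.3 in nuclei and 17.3 and 9.24 in cytoplasms, below WT in both compartments.

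Prpf38a, a factor for activation of the spliceosome, was at 52.4 and 38.8 FPKM in the nuclei and 59.5 and 25.6 in the cytoplasms. The related Prpf38b was at 23.0 and 12.6 in the nuclei and 27.5 and 8.40 in the cytoplasms. Their cytoplasmic differences were -1.19 and -1.60, both past 2-fold lower. Prpf19, the ubiquitin ligase of the Prp19 complex, was at 7.28 and 11.3 in the nuclei and 11.7 and 8.31 in the cytoplasms, and the second-step factor Prpf18 at 22.8 and 32.1 in nuclei and 22.7 and 21.4 in cytoplasms. Prpf4b, a protein kinase, was at 14.2 and 10.99 in nuclei and 9.18 and 4.35 in cytoplasms. Prpf39, related to a yeast U1 factor, was at 8.20 and 7.25 in nuclei and 3.68 and 1.54 in cytoplasms, the lowest member past the minimum in the MTR4-null cytoplasm. The group of 13 thus held 2 genes at least 2-fold above WT and 0 below in the nucleus, against 23.9% and 12.3% of all genes. It held 2 above and 3 below in the cytoplasm, against 15.0% and 21.4%. Prpf39 and Prpf4b, at 41.8% and 47.3% of the WT cytoplasmic FPKM, were not counted on the log2(FPKM + 1) scale. With a pseudocount of 0.1 they passed the limit, at -1.21 and -1.06.

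U2AF is a dimer: U2af2 binds the polypyrimidine tract, and U2af1 or the related U2af1l4 reads the AG at the 3' splice site. U2af2 was at 93.8 FPKM in nuclei of WT and 197 FPKM in those of MTR4-null oocytes, and at 109 and 141 FPKM in the cytoplasms, above WT in both compartments by 1.06 and 0.37. Its small partners differed from each other. U2af1 was at 42.6 FPKM in nuclei of WT and 67.3 FPKM in those of MTR4-null oocytes, and at 97.9 and 38.4 FPKM in the cytoplasms, so that the highest and the lowest values were both cytoplasmic, with differences of 0.65 in the nucleus and -1.33 in the cytoplasm. U2af1l4 was at 76.2 FPKM in nuclei of WT and 32.3 FPKM in those of MTR4-null oocytes, and at 88.1 and 29.1 FPKM in the cytoplasms, with differences of -1.21 and -1.56, and both MTR4-null values lay below both WT values. U2af1 made up 35.9% of the summed FPKM of both genes in WT nuclei and 67.6% in MTR4-null nuclei, but 52.6% and 56.9% in the cytoplasms.

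The first 90 coding bases of the small subunit pair hold 23 differences, again in capitals, more closely spaced than in the Sm pair.
U2af1: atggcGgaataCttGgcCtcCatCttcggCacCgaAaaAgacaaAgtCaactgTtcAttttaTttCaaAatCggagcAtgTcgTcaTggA
U2af1l4: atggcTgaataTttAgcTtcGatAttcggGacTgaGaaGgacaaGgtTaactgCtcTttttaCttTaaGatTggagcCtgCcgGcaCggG
Over the whole alignment 482 of 661 coding bases were identical (72.9%), with no identical run above 15 bases. U2af1 lies on the minus strand at chr17:31647081-31658892 and U2af1l4 on the plus strand at chr7:30563301-30565365 in GRCm38. U2af1l4 shares 1086 of its 1656 exonic bases with Gm49396 on the same strand, which has no values of its own here. U2af1l4 also shares 119 exonic bases with Psenen on the opposite strand, and the sources used here do not say whether counting used strand. Psenen itself was at 159.7 FPKM in nuclei of WT and 227 FPKM in those of MTR4-null oocytes, and at 292 and 144 FPKM in the cytoplasms, above WT in the nucleus where U2af1l4 was below it, and below WT in the cytoplasm as U2af1l4 was.

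Of the 5 groups, the SR genes had the smallest spread of genotype differences in the nucleus. None of the 11 measured SR genes was 2-fold higher or lower there, against 23.9% and 12.3% of all genes. Of the 11, 9 lay above WT and 2 below, with differences from -0.44 for Srsf10 to 0.63 for Srsf7 and a median of 0.38 (0.17 after centring). Srsf1, the founding member, was at 22.2 and 29.1 FPKM in the WT and MTR4-null nucleus, and Srsf2, the most abundant, at 87.8 and 114. Srsf3 and Srsf7 are small SR proteins that also act as adaptors for mRNA export. Srsf3 was at 21.8 and 33.2 and Srsf7 at 10.1 and 16.1. Srsf4 was at 35.5 and 41.6 and Srsf5 at 54.2 and 69.2. The 3 genes that stood apart in the cytoplasm did not do so here: Srsf6 was at 19.7 and 27.8, Srsf9 at 33.4 and 50.3 and Srsf11 at 10.7 and 17.0. Srsf10, whose activity as a repressor depends on dephosphorylation, was below WT at 33.3 and 24.4. Sfrs18 (now Pnisr), placed in the group by its old symbol alone, was also below WT at 12.6 and 9.35. All these differences stayed under 2-fold.

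The cytoplasm separated the SR genes more. Srsf6 stood at 6.14 and 16.7 FPKM in the WT and MTR4-null cytoplasm, Srsf9 at 17.2 and 52.7 and Srsf11 at 6.15 and 13.6, differences of 1.31, 1.56 and 1.03. For Srsf9 the MTR4-null cytoplasm (52.7 FPKM) was above the MTR4-null nucleus (50.3), while in WT the nucleus was the higher (33.4 against 17.2). Srsf10 was the 1 SR gene at least 2-fold lower there, at 32.3 and 12.9 and a difference of -1.26. Srsf7 was at 5.20 and 8.57, Srsf5 at 30.4 and 21.2, Srsf3 at 21.9 and 18.0, Srsf1 at 16.8 and 16.4, Srsf2 at 80.7 and 68.6 and Srsf4 at 41.4 and 30.6. Thus 3 SR genes were 2-fold higher and 1 lower, against 15.0% and 21.4% of all genes. As deposited, 5 were above WT and 6 below. The median was -0.03 as deposited and 0.23 after centring, so its sign depends on the scaling. When centred on the genes present in every column, Srsf3, Srsf4 and Srsf5 lay above WT, at 0.30, 0.14 and 0.07, and Srsf10 at -0.70. Srsf2 shares 460 exonic bases with Mettl23 on the opposite strand, which has no values of its own here. Srsf2 also shares 288 exonic bases with Mfsd11 on the opposite strand, which was at 5.22 and 34.9 FPKM in the nuclei and 1.80 and 32.6 in the cytoplasms.

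In the WT oocyte, SR genes lay more toward the nucleus than the other members did, a difference that could not be tested with 1 column per group. The nucleus and cytoplasm of WT differed by a median of 0.38 among SR genes, with 9 of 11 above 0, and by -0.13 among the other 36 members, with 14 above 0. The median over all genes was -0.04, and -0.14 among the 8745 abundant genes. On the log2(FPKM + 1) scale, Srsf6 was the 1 member at least 2-fold higher in the WT nucleus (19.7 against 6.14 FPKM, an FPKM ratio of 3.21). U2af1 was the 1 member at least 2-fold higher in the WT cytoplasm. The shares of all genes were 12.4% and 4.71%. Among the SR genes, FPKM ratios of nucleus to cytoplasm followed for Srsf9 (1.95), Srsf7 (1.93), Srsf5 (1.79) and Srsf11 (1.74), and Srsf4 (0.858) was the lowest. Outside the SR genes, Prpf39 and Prpf40b had the highest WT differences in favour of the nucleus, 0.98 and 0.93 on the log2(FPKM + 1) scale. Their FPKM ratios were 2.23 and 2.36, past 2-fold without the added 1 and above those of all SR genes but Srsf6. The Sm gene Snrpb was at 0.72 on the log2(FPKM + 1) scale.

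**Figure D4:**
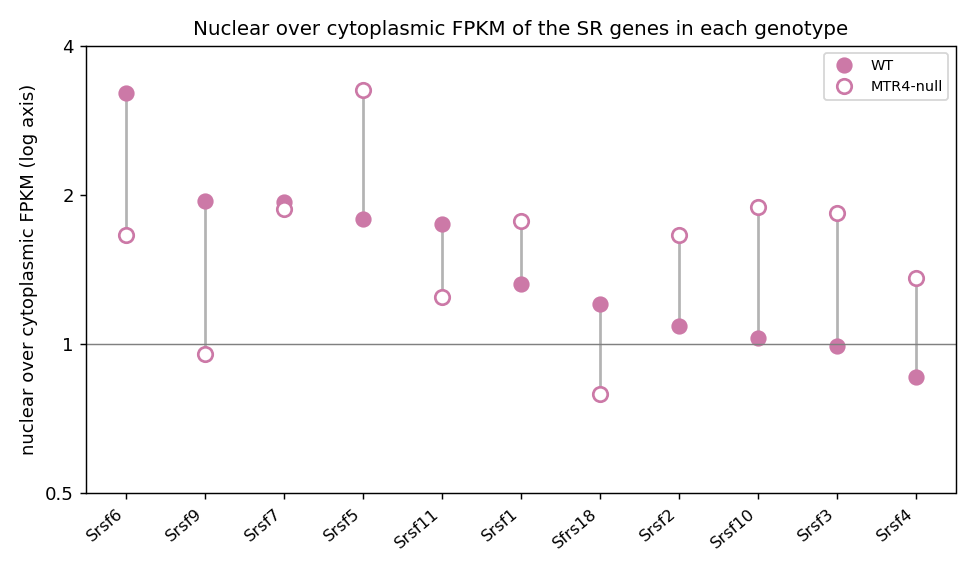
Ratio of nuclear to cytoplasmic FPKM (logarithmic axis) of the 11 measured SR genes in WT and MTR4-null oocytes, 1 value per gene and genotype without replicate error. Srsf6, Srsf9, Srsf11 and Sfrs18 have a lower ratio without MTR4, Srsf7 is nearly level, and Srsf5, Srsf10, Srsf3 and others have a higher one.

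Without MTR4 some SR ratios were lower than in WT and others higher. Srsf6 was at 1.66 against 3.21 in WT, Srsf9 at 0.954 against 1.95, Srsf11 at 1.25 against 1.74 and Sfrs18 at 0.795 against 1.21. Srsf5 was at 3.26 against 1.79, Srsf10 at 1.89 against 1.03, Srsf3 at 1.84 against 0.994 and Srsf2 at 1.66 against 1.09. On the log2(FPKM + 1) scale these changes were -0.84, -0.99, -0.41 and -0.55 for Srsf6, Srsf9, Srsf11 and Sfrs18, and 0.84, 0.83, 0.86 and 0.60 for Srsf5, Srsf10, Srsf3 and Srsf2, and after centring they were, in the same order, -1.41, -1.56, -0.99, -1.12, 0.27, 0.25, 0.28 and 0.03. When centred on the genes present in every column, Srsf5, Srsf10 and Srsf3 lay at 0.08, 0.06 and 0.09, and Srsf6, Srsf9, Srsf11 and Sfrs18 at -1.60, -1.75, -1.18 and -1.31. The lower ratios of Srsf6, Srsf9, Srsf11 and Sfrs18 thus held under both centrings, and the higher ratios were close to the shift of all genes. Srsf5 was thus the SR gene with the highest nuclear ratio in the MTR4-null oocytes and Srsf6 that in WT. The comparison of nucleus with cytoplasm in WT and the genotype comparison in the cytoplasm share the WT cytoplasm column, so the values of Srsf6, Srsf9 and Srsf11 in both (1.54, 0.92 and 0.71 for the former, and 1.31, 1.56 and 1.03 for the latter) rest in part on the same measurement.

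Over all groups, the MTR4-null nucleus was above the MTR4-null cytoplasm in 44 of 47 members as deposited, with a median of 0.58. At least 2-fold higher were 5 members (Prpf39, Srsf5, Snrpe, Prpf4b and Sf3b2) and 0 lower, against 17.0% and 1.84% of all genes and an all-gene median of 0.52. The exceptions were Snrpg (-0.71), Sfrs18 (-0.30) and Srsf9 (-0.07). After centring the members' median was 0.06, with 29 above 0 and 18 below. After centring 2 members were 2-fold higher (Prpf39 and Srsf5) and 1 lower (Snrpg), against 4.96% and 5.66% of all genes. The shift toward the nucleus is thus one the members share with the whole table.

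The change in that ratio, MTR4-null minus WT, was at least 1 on the log2 scale for 9 members and at most -1 for 0, with a median of 0.65, against 27.0% and 10.7% of all genes and a median of 0.57. The 9 were U2af1 (1.98), Snrpa1 (1.60), Snrpe (1.35), Sf3b2 (1.25), Sf3b5 (1.24), Snrpa (1.22), Prpf8 (1.18), Prpf3 (1.08) and Prpf19 (1.03). After centring, which subtracts 0.57, 2 members were past 1 (U2af1 and Snrpa1) and 5 past -1 (Srsf9, Srsf6, Snrpb, Sfrs18 and Snrpg). These are 4.3% and 10.6% of the members, against 9.11% and 19.3% of all genes. The 9 came to their deposited values by different routes. Snrpa and Sf3b5 came through a higher nucleus, and Snrpa1, Sf3b2 and Prpf3 mainly through a lower cytoplasm. U2af1, Snrpe, Prpf8 and Prpf19 came through both. After centring, Snrpe and Prpf8 differed from WT by 0.11 and 0.15 in nuclei, and by -0.77 and -0.56 in cytoplasms. Most of their nuclear side was thus the shift of all genes. The centred values of U2af1 were 0.44 (nucleus) and -1.06 (cytoplasm), and those of Prpf19 were 0.37 and -0.19. No SR gene was among the 9. As deposited, Srsf9 (-0.99), Srsf6 (-0.84), Sfrs18 (-0.55) and Srsf11 (-0.41) were 4 of the 6 members with a ratio below that in WT. Snrpb (-0.58) and Snrpg (-0.43) were the others.

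**Figure D5:**
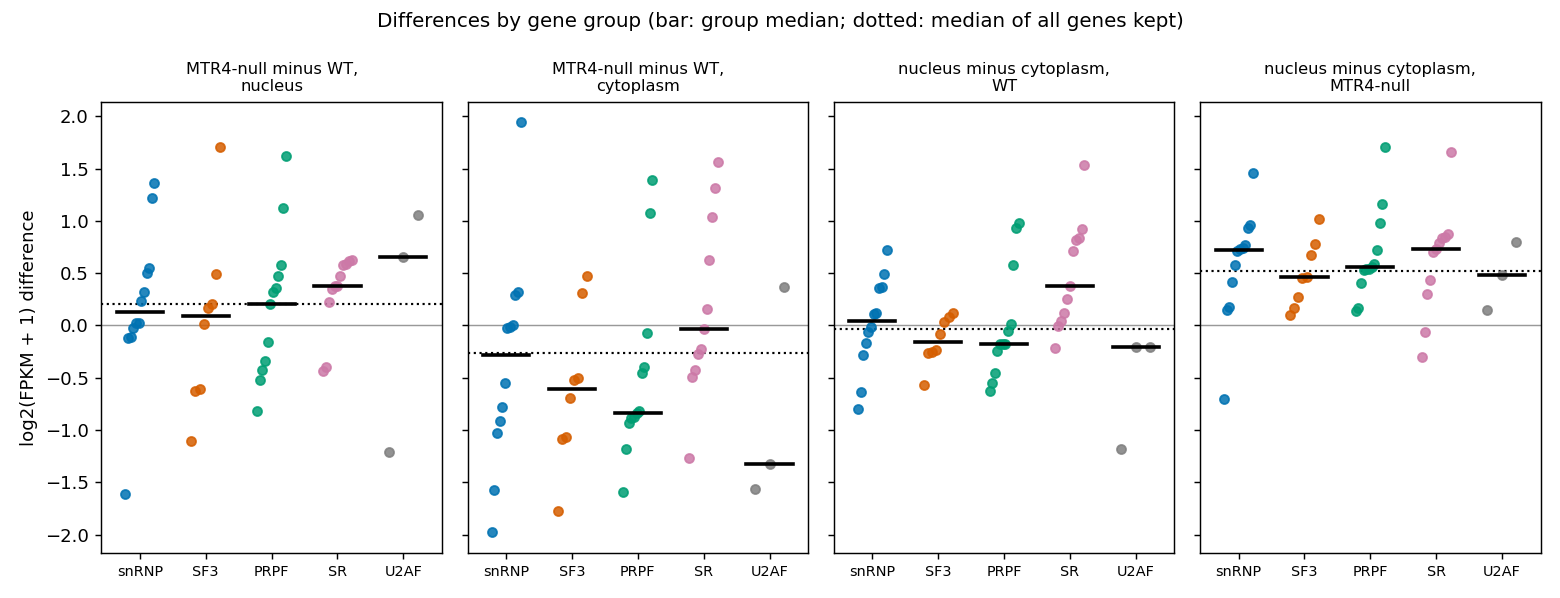
Difference in log2(FPKM + 1) of each member by gene group in the comparisons of genotype and of compartment, with the median of the whole group as a line and 1 point per gene for 46 of the 47 members. In the cytoplasm the SR median lies at -0.03 and the PRPF median at -0.84, while in WT the SR median is the highest of the groups at 0.38.

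Set side by side, the group medians for the nucleus were 0.13 for snRNP, 0.09 for SF3, 0.21 for PRPF, 0.38 for SR and 0.65 for the 3 U2AF genes. For the cytoplasm they were -0.29, -0.61, -0.84, -0.03 and -1.33, and after centring -0.02, -0.35, -0.57, 0.23 and -1.06. SR genes stood above the other members in both, at 0.38 against 0.19 in the nucleus and -0.03 against -0.74 in the cytoplasm, with wide overlap of single genes. The distance of each group's median from that of all members moved by less than 0.25 under every scaling, filter and pseudocount tried. Both centrings subtract the same value from every gene, so they could not have moved it. Rescaling multiplies a whole column and could hardly have moved it, and the filters changed only whether Srsf12 was counted. Steadiness under those settings is therefore no support for the order of the groups. Summed over genes, SR levels were 341 and 432 FPKM in WT and MTR4-null nuclei, and 269 and 271 FPKM in the cytoplasms, whereas the PRPF sums were 344, 369.8, 397 and 236 and the SF3 sums 417, 469, 461 and 329 in that order. As deposited, the SR sum was thus level between the cytoplasms, where the sums of PRPF and SF3 genes were lower without MTR4.

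Transcript annotation, which the selection did not use, also varied between the groups. In GENCODE M21, 10 of the 11 measured SR genes (90.9%) have an annotated transcript that ends in nonsense-mediated decay, against 15 of the 36 other members (41.7%) and 27.3% of the 12995 annotated genes past the minimum. The other groups were unlike: all 3 U2AF genes have one, as do 53.8% of PRPF, 33.3% of snRNP and 12.5% of SF3 genes. Retained-intron transcripts are annotated for 35 of the 47 members (74.5%) and for 55.7% of all genes. SR genes have a median GC content of 43.9%, against 48.8% for the other members and 50.0% for all genes. Members with an annotated decay transcript had median genotype differences of 0.34 (nucleus) and -0.42 (cytoplasm), and those without had 0.19 and -0.51. Outside the SR genes these medians were 0.02 and -0.93 with such a transcript (15 genes) and 0.20 and -0.51 without (21 genes). The part of decay in these differences was not tested. FPKM per gene adds up all transcripts, and the decay isoforms themselves were not analysed here.

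Length and exon number also follow the groups. The snRNP genes have short transcripts, with a median length of 1204.5 nt and 5 exons, whereas SF3 and PRPF genes have medians of 3532 and 3522 nt with 16.5 and 15 exons; SR genes lie between, at 2618 nt and 6 exons. Across the 47 members, GC content and the nuclear genotype difference had a Pearson's r of 0.22, the same as over all genes, and a value of 0.19 in the cytoplasm, again the same as over all genes. GC content and the WT difference of nucleus minus cytoplasm had r of -0.29 and rho of -0.37 over the members. Over all genes these were -0.07 and -0.08. With such weak relations over genes that share the same 4 columns, these values are a description only. Exonic bases are shared with another annotated gene by 16 members, and by 8 of them with a gene that has its own row in the table. Snrpf is 1 of them, with 567 bases shared with Ccdc38 on the opposite strand; Ccdc38 was at 7.11 FPKM in nuclei of WT and 0.195 FPKM in those of MTR4-null oocytes, and at 6.58 and 0.109 FPKM in the cytoplasms, much lower without MTR4, while Snrpf was at 24.5 and 35.1 in the nuclei and 17.1 and 21.1 in the cytoplasms.

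Other splicing genes place these values in the wider pathway, and their counts are to be read against the shares of all genes, 23.9% higher and 12.3% lower in the nucleus and 15.0% and 21.4% in the cytoplasm. The 7 further snRNP proteins listed under Snrnp symbols had 0 members 2-fold higher or lower in the nucleus (median 0.11), and 1 higher and 1 lower in the cytoplasm (median -0.47). One of these, Snrnp200, the helicase that unwinds U4 from U6, was at 36.0 and 32.9 FPKM in the nuclei and 44.4 and 16.5 in the cytoplasms. Of 6 measured LSM genes, which form the ring on U6, 0 were called in the nucleus (median 0.54) and 1 was lower in the cytoplasm (median -0.30). The 8 spliceosomal helicases had 0 calls in the nucleus (median 0.32) and 1 lower in the cytoplasm (median -0.52). No gene of these 3 lists was 2-fold away from WT in the nucleus.

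Of 23 other tri-snRNP, Prp19 complex and step factors, 4 were 2-fold higher and 2 lower in the nucleus, and 3 higher and 10 lower in the cytoplasm, where 28.0% of the abundant genes were lower. Cdc5l, a partner of Prpf19 in the Prp19 complex, was at 23.8 and 104 FPKM in the nuclei and 13.2 and 43.3 in the cytoplasms. Bcas2 of the same complex was at 19.7 and 64.4 in nuclei and 7.63 and 57.2 in cytoplasms, higher without MTR4 in both compartments as Cdc5l was. Ppih, a cyclophilin bound to Prpf4 and Prpf3, was at 14.7 and 69.3 in nuclei and 21.1 and 46.3 in cytoplasms, higher in both as Prpf4 was. Cwc22, which loads the exon junction complex, was at 162 and 32.5 in nuclei and 118 and 29.3 in cytoplasms, and Sart1, a tri-snRNP protein, at 36.8 and 16.1 in nuclei and 23.4 and 8.53 in cytoplasms, both lower.

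Among 11 other early factors, 0 were 2-fold higher and 2 lower in the nucleus, and 2 higher and 5 lower in the cytoplasm. Sf1, the branch point binding protein that partners U2AF, was at 38.4 and 17.2 FPKM in the nuclei and 37.5 and 13.6 in the cytoplasms, lower in both, unlike U2af2. Rbm5, a regulator of 3' splice site choice, was at 14.8 and 25.7 in nuclei and 4.37 and 19.0 in cytoplasms. The 22 measured SR protein kinases and SR-related proteins had 1 higher and 2 lower in the nucleus, and 0 higher and 8 lower in the cytoplasm. Clk1, a kinase that phosphorylates SR proteins in the nucleus, was at 50.0 and 34.6 in nuclei and 60.3 and 22.0 in cytoplasms, and Srpk2, which does so in the cytoplasm, at 36.3 and 27.5 in nuclei and 35.8 and 12.5 in cytoplasms. The SR-related median in the cytoplasm was -0.76 against -0.03 for the SR genes themselves.

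The 16 measured genes for the SMN complex and Sm ring assembly had 7 members 2-fold higher and 0 lower in the nucleus, against 23.9% and 12.3% of all genes, and 3 higher and 1 lower in the cytoplasm, against 15.0% and 21.4%. Prmt5, which methylates Sm proteins before assembly, was at 4.52 and 17.1 FPKM in the nuclei and 5.65 and 9.77 in the cytoplasms. Coil, the marker protein of Cajal bodies, was at 9.40 and 21.03 in nuclei and 6.68 and 17.0 in cytoplasms, and Gemin4 of the SMN complex at 0.605 and 5.98 in nuclei and 1.62 and 4.21 in cytoplasms. Of 25 measured hnRNP genes, which often oppose SR proteins at exons, 5 were higher and 0 lower in nuclei, and 1 higher and 3 lower in the cytoplasm; Hnrnpa0 was at 29.6 and 77.1 in nuclei and 32.3 and 65.3 in cytoplasms. The 8 exon junction complex genes had 0 higher and 1 lower in nuclei, and 2 higher and 1 lower in cytoplasms. The 4 minor spliceosome proteins had 0 calls in the nucleus and 2 lower in the cytoplasm.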

How the data were processed

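Total RNA from nuclei and cytoplasms of WT and MTR4-null oocytes was sequenced as 150 bp paired-end reads from fragments of 300 to 400 bp, per the labels' protocols. The deposited FPKM table has 1 value per gene and group. TopHat2 2.1.1, Cufflinks 2.2.1 and the mm9 build are named in the submitters' processing notes; how 9 libraries became 4 columns, the strand setting and the handling of shared reads are not given in the sources used here. A last row without a symbol equals each column's sum and was left out. From the authors' FPKM, differences of log2(FPKM + 1) were computed (Python 3.11.15, pandas 2.3.3, numpy 2.4.6) for genes at 1 FPKM or more in at least 1 column, and 2-fold or more was counted as higher or lower. With 1 column a group no test was run and depth is unknown, so no interval could be given. The scripts were tested on simulated data. Members, gene lists and comparisons were chosen with earlier results of these data known. Named were, per group and comparison, up to 3 members with the largest difference in each direction whose higher column reached 5 FPKM, the highest and lowest member in the WT nucleus, and others for their role; from each of 11 lists of related splicing genes, up to 2 per direction and genotype comparison. Transcript features and coding sequences came from GENCODE M21 (GRCm38), matched by symbol for all 48 genes, 1 through an older symbol, and coding sequences were aligned with Biopython 1.88. Alternatives were another pseudocount, fold limit, filter, centring, quantile normalization, rescaling without small RNA genes and leaving out Snrpn. The values of 1 member, included in all counts and medians, are not reported here.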

Additional observations from a re-analysis of the deposited data

Results flagged for a closer look

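For 3 genes the MTR4-null columns lay above WT in the nucleus and below WT in the cytoplasm under every scaling tried. Their change of the nucleus to cytoplasm ratio was also at least 1 on the log2(FPKM + 1) scale as deposited, as it was for 27.0% of all genes. The share of all genes that meet both conditions was not counted, so 3 of 47 cannot be called many or few. Whether the compartments differ was not tested, since each group has 1 column. U2af1, the small U2AF subunit that reads the 3' splice site, had the widest change among the 47 members, 1.98, from differences of 0.65 in the nucleus and -1.33 in the cytoplasm. For the Sm ring gene Snrpe the change was 1.35, from 0.32 and -1.03. For Prpf8, the scaffold of the catalytic centre, it was 1.18, from 0.36 and -0.82. After centring on all genes the changes were 1.40, 0.78 and 0.61, so that only U2af1 of these 3 stayed above 1.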

How the results depend on the processing

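Counts below are of members at least 2-fold apart unless another limit is named. With a limit of 1.5-fold, 10 members were higher and 7 lower in the nucleus and 20 lower in the cytoplasm. Between compartments 8 were higher and 4 lower in WT nuclei, and 23 and 1 in MTR4-null nuclei, and 26 and 2 in the change of the ratio. The shares of all genes at this limit were not counted, so these counts show only how the members' calls depend on it. The cytoplasm's values depend on scaling. Its median of -0.50 became -0.23 after centring on all genes, 0.07 after centring on genes present in every column, 0.11 after quantile normalization and 0.08 after rescaling without small RNA genes, and its 12 lower members became 5 with the common-gene centring, 6 with quantiles and 5 without small RNA genes. With a pseudocount of 0.1 the cytoplasm had 14 lower members. In the nucleus quantile normalization left 3 higher and 5 lower members. For WT compartments the 1 higher member became 4 with the common-gene centring, 2 with all-gene centring, 4 without small RNA genes and 3 with a pseudocount of 0.1. For MTR4-null compartments both centrings, quantile normalization and rescaling without small RNA genes each left 2 higher and 1 lower. The median of 0.58 became -0.04 (common genes), 0.06 (all genes), -0.05 (quantiles) and -0.03 (without small RNA genes). The change of the ratio, 9 higher and 0 lower, became 1 and 6 (common genes), 2 and 5 (all genes), 1 and 5 (quantiles) and 1 and 6 (without small RNA genes), and 1 was lower with a pseudocount of 0.1; its median of 0.65 became -0.12, 0.07, -0.11 and -0.09 in the same order of scalings. Whether differences between libraries take part in this was not tested. Leaving out Snrpn, dropping the minimum or raising it to 5 FPKM moved no count by over 1.5 times. Of the single-gene values over these settings, 1465 kept their side of the limit, 53 passed it, 77 no longer did, and 0 values past it changed sign. Dropping or raising the minimum and leaving out Snrpn change no single gene's value, so their entries among the 1465 were fixed in advance. The 1465 therefore overstates how steady the values were. No replicate could be left out, and depth limits cannot be given. No paired analysis was possible because the table has 1 column per group and its columns carry no replicate number.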

Other observations

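Small nuclear RNAs are the RNA parts of snRNPs. They were looked for by symbol only, beginning with Rnu and a digit, and 3 symbols matched. Rnu11 and Rnu12, the U11 and U12 snRNAs of the minor spliceosome, were higher in the MTR4-null columns of both compartments. Rnu11 was listed at 79.6 and 1577 FPKM in nuclei and at 0 and 366 FPKM in cytoplasms, and Rnu12 at 232 and 654 FPKM in nuclei and 9.87 and 1099 FPKM in cytoplasms. Rnu73b, which matched by symbol and is not counted here as a spliceosomal RNA, was listed at 0 except in MTR4-null nuclei, where it was at 158 FPKM. These RNAs are shorter than the fragments selected for sequencing, so their FPKM are uncertain. The 4 minor spliceosome protein genes did not share this pattern: Zcrb1 was at 99.8 and 67.2 FPKM in nuclei and 97.3 and 39.1 FPKM in cytoplasms, and none of the 4 was 2-fold higher in either compartment.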
